A study of Mus musculus with 2 samples.

Results

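The 33 genes described here encode the Janus kinases, 6 STAT transcription factors and the proteins that restrain or adapt their signalling. They were taken from the deposited table by gene symbol, and all 33 were found among its 55487 genes. The table holds RNA sequencing counts from Langerhans cells, which sample antigen in the epidermis, of mice with the genotype HTR2A-/-, in which the gene of the serotonin 2A receptor is disrupted. The cells were sorted from enzyme-digested ears by surface CD207 and MHC class II staining and then exposed for 24 hours to imiquimod, an agonist of Toll-like receptor 7, and to an agent labelled a-CD40L. Both samples belong to this single group, so nothing below compares genotypes or treatments, and wild-type and unstimulated cells were not analysed here. The sources used here do not give the age, sex and strain of the mice, or whether each sample came from 1 animal or a pool. The series title calls the cells monocyte-derived, whereas the protocols describe cells sorted from ears.

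Cytokine receptors of the class I and class II families have no kinase of their own. Binding of a ligand activates the Janus kinases attached to the receptor tails, and these phosphorylate STAT proteins, which pair, enter the nucleus and switch on target genes. Several targets, among them the SOCS genes and Cish, encode inhibitors that act back on the receptor or kinase. Phosphatases and PIAS proteins limit the signal at other steps. In Langerhans and other dendritic cells these routes carry signals from interferons, IL-10, IL-4, the IL-6 family and GM-CSF.

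The library numbered 2 held 42264685 counts and the other, called library 1, held 69925160. Levels are given as CPM, which sets each count against its library's total, and levels of different genes are set beside each other only as CPM per kb of exon. Exact 95% Poisson and binomial intervals cover counting error only. The 1135 protein-coding olfactory receptor genes, which skin cells are not known to use, served as background, with medians of 0.645 CPM per kb in library 2 and 0.221 in library 1. Htr2a itself had 117 counts in library 2 and 77 in library 1, at percentiles 33.4 and 44.5 of these background genes per kb. The sort marker Cd207 stood at 1052 and 1125 CPM. The 2 libraries stood far apart, with a biological coefficient of variation of 0.635 between them. The 8 keratinocyte markers summed to 14555 CPM in library 2 and 4161 CPM in library 1, whereas the 6 markers of mature dendritic cells summed to 694 and 2716 CPM. Library 2 carried 1384 CPM of Xist and 0.0946 CPM of the Y-linked Ddx3y, against 3.90 and 149 CPM in library 1, so they are not repeats from 1 mouse. By these genes the libraries differ in sex, which cannot be told apart from other differences between them.

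Of the 33 genes, 31 lay above background in both libraries, which means above the 95th percentile of the olfactory receptor genes per kb, 1.58 CPM per kb in library 2 and 0.761 in library 1. Of all genes with an exon length 27.2% met this rule, and of protein-coding genes 47.3%. Jak3 and Socs2 were above background in library 1 alone. Pim2 lay just above the limit in library 2, at 1.63 CPM per kb. The median of the 33 genes was 8.0 CPM per kb in library 2 and 11.3 in library 1, against 1.60 and 1.10 for the 21974 protein-coding genes. Socs3 and Pim1 were the most abundant of the set per kb in both libraries, in opposite order.

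**Figure D1:**
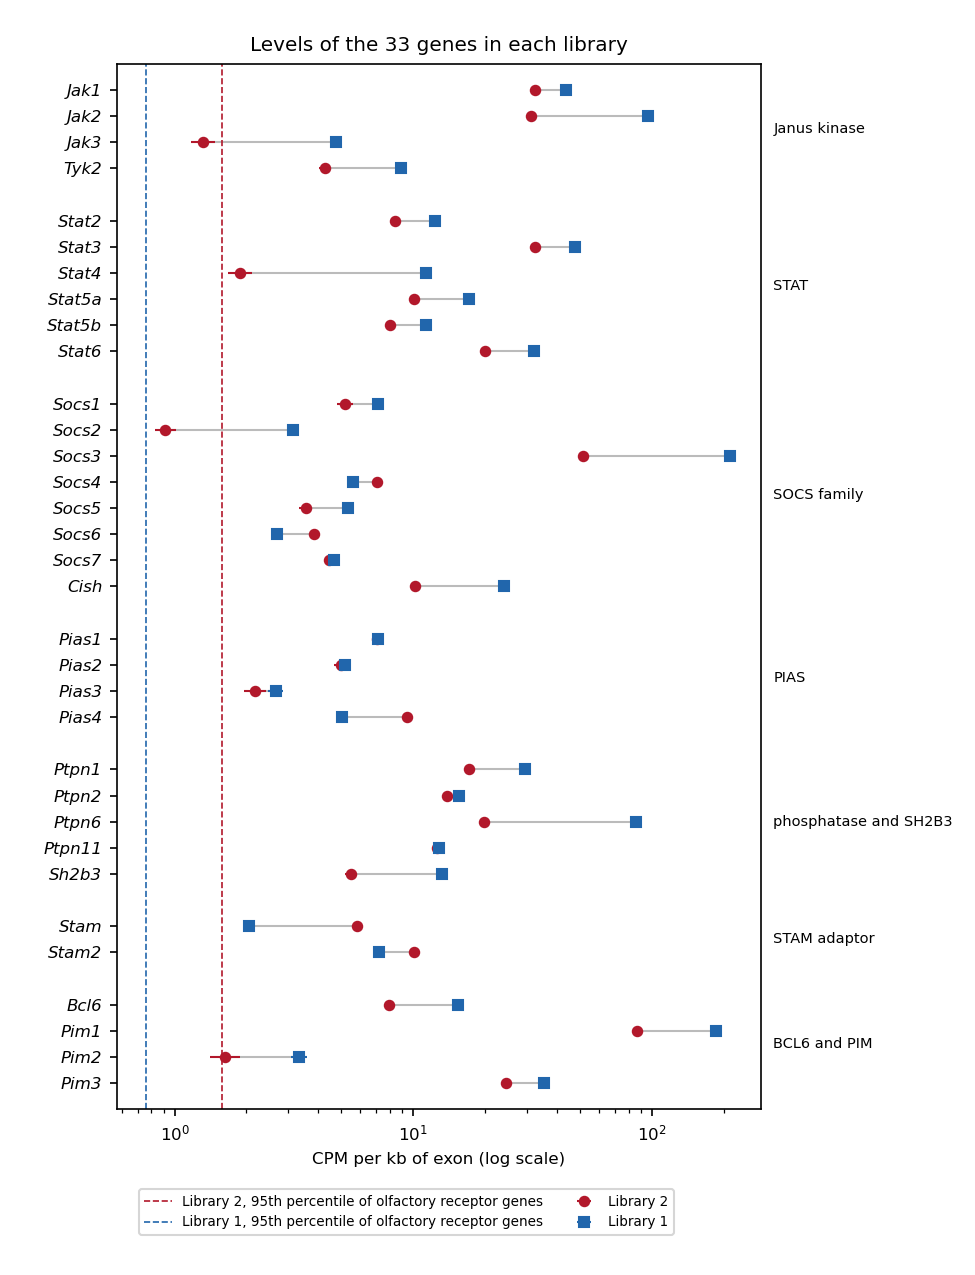
Level of each of the 33 genes in CPM per kb of exon (log scale), grouped by role, with circles for library 2, squares for library 1, bars for the 95% Poisson interval and dashed lines at the 95th percentile of the olfactory receptor genes in each library. Jak3 and Socs2 fall left of the library 2 line, and Socs3 and Pim1 lie farthest to the right.

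The 2 replicates differed widely in these genes, mostly in 1 direction. With TMM scaling, 20 of the 33 genes were at least 2-fold lower in library 2 and 1 was at least 2-fold higher. Among the 30373 genes that reached 1 CPM in either library, 12.6% were at least 2-fold lower and 24.5% at least 2-fold higher in library 2. Among genes above background in both libraries the shares were 18.5% and 6.23%, and among the protein-coding ones of these 20.7% and 4.95%. The median log2 ratio of library 2 over library 1 was -1.06 for the 33 genes, -0.43 for those protein-coding genes and 0.15 for all 30373 genes. Against plain library totals, which raise the ratios by 0.50 (log2), the counts were 11 lower and 1 higher, against 5.48% lower and 38.6% higher among the 30373 genes. Relative to Cd207, 8 of the 33 were at least 2-fold lower in library 2 and 1 was higher, against 4.63% and 41.7%. Ptprc, which encodes the leukocyte surface phosphatase CD45, had a log2 ratio of -2.61. Setting the libraries to equal Ptprc moves every gene up by that amount, and then 0 of the 33 were lower and 25 higher, against 0.283% and 95.4%. For library totals, Cd207 and Ptprc, shares were computed over the 30373 genes only. The shares among protein-coding genes above background, which with TMM were far from those of the 30373, were not computed there. In these bulk samples, fewer cells of a type and less RNA per cell cannot be told apart, and the part of cell composition in these ratios was not tested. No p-value was computed for them, because 2 libraries of 1 group leave no replicate of each library.

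**Figure D2:**
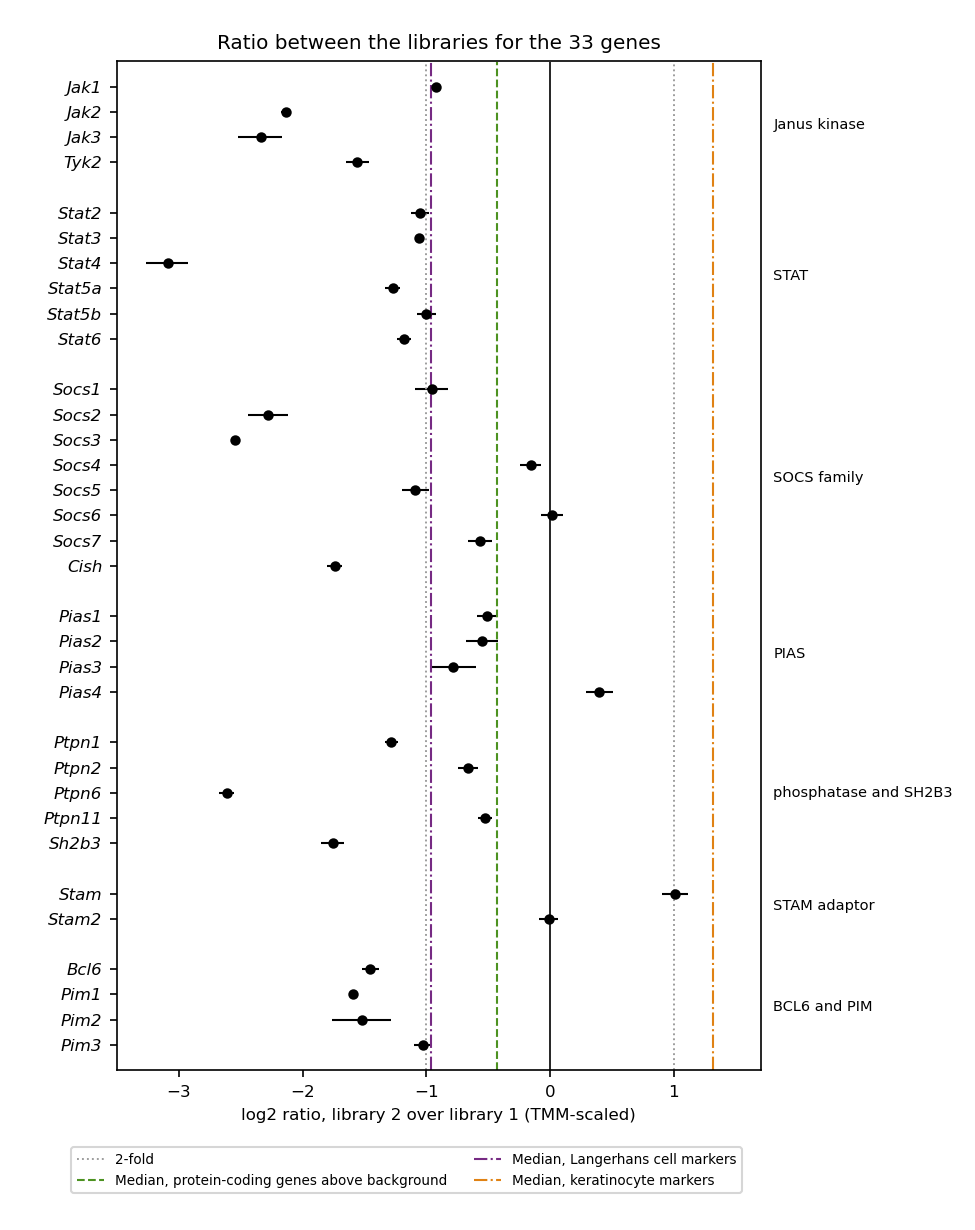
Log2 ratio of library 2 over library 1 for each of the 33 genes after TMM scaling, with bars for the exact 95% binomial interval (counting error only), dotted lines at 2-fold, and vertical lines at the medians of protein-coding genes above background, Langerhans cell markers and keratinocyte markers. Stat4 has the lowest ratio at -3.09, and Stam the highest at 1.01.

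Among the Janus kinases, Jak1 and Jak2 dominated and Jak3 was scarce. Jak1, which serves interferon, IL-10, IL-4 and IL-6 family receptors, was at 32.4 CPM per kb in library 2 and 43.5 in library 1, or 38.0 ± 7.84 (SD, n = 2). Jak2 (ENSMUSG00000024789, GRCm38 chromosome 19, 29251828 to 29313080, plus strand), the kinase of the GM-CSF receptor and of one chain of the IFN-γ and the IL-12 and IL-23 receptors, was at 31.0 and 96 CPM per kb. Library 1 thus carried more than library 2 of both, and far more of Jak2. Per kb, the Jak1 to Jak2 ratio was 1.05 in library 2 (95% interval 1.01 to 1.08) and 0.453 in library 1 (0.445 to 0.461), so the order of the pair was reversed between the replicates. Tyk2, which pairs with the IFN-α receptor and with the shared chain of the IL-12 and IL-23 receptors, was at 4.27 CPM per kb in library 2 and 8.89 in library 1. Jak1 exceeded it 7.59 times in library 2 and 4.89 times in library 1. Jak3, which binds the common γ chain Il2rg and is found mainly in blood cells, was at 1.32 and 4.72 CPM per kb, and in library 2 at percentile 89.96 of the background genes. The log2 ratios were -0.93 for Jak1, -2.13 for Jak2, -2.34 for Jak3 and -1.56 for Tyk2. Exons of Jak3 overlap those of Insl3 on the same strand over 404 bp, but Insl3 had 14 counts in library 2 and 0 in library 1, against 298 and 1768 for Jak3.

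Stat3 was the most abundant of the 6 STAT genes in both libraries, followed by Stat6 and Stat5a. Stat3 (ENSMUSG00000004040, GRCm38 chromosome 11, 100885098 to 100939540, minus strand), the main factor downstream of IL-10, IL-6 and IL-23, was at 32.3 CPM per kb in library 2 and 47.5 in library 1, or 39.9 ± 10.8 (SD, n = 2). In CPM it reached 307 (95% interval 302 to 313) and 452 (447 to 457). Stat6, the factor of IL-4 and IL-13, was at 20.01 CPM per kb in library 2 and 32.05 in library 1. The Stat3 to Stat6 ratio was close in the 2 libraries, at 1.61 (95% interval 1.55 to 1.67) in library 2 and 1.48 (1.45 to 1.52) in library 1, although the intervals did not overlap. Both genes were among the 8 highest of the 33 in each library.

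Stat5a and Stat5b, neighbouring genes with closely related products that act downstream of GM-CSF, were at 10.1 and 8.0 CPM per kb in library 2, and at 17.2 and 11.3 in library 1. Stat5a exceeded Stat5b by 1.26 (95% interval 1.19 to 1.34) in library 2 and by 1.52 (1.47 to 1.58) in library 1, though reads that fall in identical stretches could have been split between them. Exons of Stat5a and Stat3 also overlap on opposite strands over 72 bp, and the sources used here do not say whether strand was used in counting. Stat2, the partner in the type I interferon complex, was at 8.39 and 12.3 CPM per kb. These 5 STAT genes had log2 ratios between -1.27 (Stat5a) and -1.0004 (Stat5b), a narrow range beside that of the 33 genes.

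Stat4 (ENSMUSG00000062939, GRCm38 chromosome 1, 51987148 to 52107189, plus strand), the factor of IL-12, stood apart from the other STAT genes. It was at 1.88 CPM per kb in library 2, at percentile 97.6 of the background genes, and at 11.3 in library 1, where it matched Stat5b. It had the lowest log2 ratio of the 33 genes, -3.09 (95% interval -3.27 to -2.92), or 8.51-fold lower in library 2. T cells and mature dendritic cells both express Stat4. Of the 5 T cell markers, Cd3e, Cd3d, Cd3g and Trdc had log2 ratios of -2.27, -2.01, -2.51 and -1.96, whereas Thy1 was higher in library 2 at 0.64. The 6 mature dendritic cell markers ranged from -3.66 (Ccl22) to -0.73 (Relb). The T cell list summed to 114 CPM in library 2 and 187 CPM in library 1, with 4 and 5 of its 5 genes above background and none at 0 counts. In both libraries 4 of the 5 were above background, against 47.3% of protein-coding genes. The part of these cells in the Stat4 value was not tested. Exons of Stat4 overlap those of Gm28177 on the same strand over 1033 of 3872 bp, and that gene had 112 counts in library 2 and 0 in library 1, against 308 and 3071 for Stat4. How reads in the shared stretch were assigned is not known. The ratio of Stat4, its interval and its rank among the 33 genes may depend on it.

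Of the SOCS family, which combine a phosphotyrosine-binding SH2 domain with a box that recruits a ubiquitin ligase, Socs3 was the most abundant. Socs3 (ENSMUSG00000053113, GRCm38 chromosome 11, 117966079 to 117970047, minus strand), an inhibitor of IL-6 family and other receptors that bind its SH2 domain, was at 51.6 CPM per kb in library 2 and 213 in library 1. This was 59.5% of the summed per-kb level of the 8 family members in library 2 and 80.2% in library 1. In CPM it was at 149 (95% interval 146 to 153) and 615 (609 to 621), and its log2 ratio was -2.54 (95% interval -2.58 to -2.51). Cish, a STAT5 target that restrains cytokine receptors, came second in both libraries with 10.1 and 23.9 CPM per kb and a log2 ratio of -1.74. Socs1, which blocks the Janus kinases directly and limits interferon responses, was at 5.18 and 7.12 CPM per kb with a log2 ratio of -0.96. Socs3 thus exceeded Socs1 by 9.96 per kb in library 2 and by 29.9 in library 1. Socs2, a regulator of growth hormone signalling, was at 0.916 CPM per kb in library 2, at percentile 71.6 of the background genes, and at 3.14 in library 1.

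The other members of the family have been linked to receptor tyrosine kinases more than to cytokine receptors, and with TMM scaling 3 of these 4 differed less between the replicates than Socs1 did. Socs4 was at 7.08 CPM per kb in library 2 and 5.57 in library 1, Socs6 at 3.83 and 2.68, and Socs7 at 4.44 and 4.66. Their log2 ratios were -0.16, 0.01 and -0.57 with TMM scaling, and 0.34, 0.51 and -0.07 with library totals, where Socs1 was at -0.46 and so differed less than Socs6. Socs5 was at 3.54 and 5.32 CPM per kb with a ratio of -1.09, close to that of Socs1. As a result, the order below Socs3 and Cish was not the same in the 2 libraries: Socs4 came next in library 2, and Socs1 in library 1.

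STAT dimers bind the palindrome TTCNNNGAA, and STAT6 also a wider form with 1 more base between the half-sites. Both motifs read the same on either strand and were searched in RefSeq promoter windows (GRCm38.p6) of 300 bases, 250 before to 50 after an annotated start. Windows were found for 26 of the 33 genes. The narrow palindrome occurred in the windows of 3 of these 26 genes (11.5%), Socs3, Cish and Bcl6, against 9.55% of all 27025 genes in the table. The wide one occurred in 1 of the 26 (3.85%), Stat2, against 8.01% of all genes. These shares are near those of all promoters, and a match is not evidence of binding. The stretches are shown because they sit at genes of the pathway whose levels are given here. Each runs 5′ to 3′ on the gene's strand, with the motif in capitals.
Socs3 (chr11:117969501-117969530, minus strand, motif 154 bases before the start): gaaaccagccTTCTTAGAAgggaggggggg
Cish (chr9:107296654-107296683, plus strand, the first motif at the start itself): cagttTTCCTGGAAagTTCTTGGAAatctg
Bcl6, upstream start (chr16:23988951-23988980, minus strand, 118 bases before the start): agcaaattagTTCTCAGAAttccagaggcc
Bcl6, downstream start (chr16:23981343-23981471, minus strand, motifs 168, 122 and 88 bases before the start): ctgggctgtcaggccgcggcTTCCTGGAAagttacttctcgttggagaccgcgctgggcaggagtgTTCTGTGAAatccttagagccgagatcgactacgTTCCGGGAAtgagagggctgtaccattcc
Stat2 (chr10:128270278-128270307, plus strand, wide motif 210 bases before the start): tcagtttcctTTCCCTAGAActcacggttc
The Cish stretch lies in an exon of Cish in GENCODE M21, and the others overlap no annotated exon. The Cish stretch holds 2 palindromes within 30 bases and the downstream Bcl6 start 3 within 129 bases. Pim1, a textbook STAT target, holds neither motif in its windows.

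Bcl6 and the PIM kinases are transcribed in response to cytokines in many blood cells. Pim1 (ENSMUSG00000024014, GRCm38 chromosome 17, 29490753 to 29496112, plus strand), a constitutively active serine kinase that supports survival, was at 86.6 CPM per kb in library 2 and 185 in library 1, at percentiles 98.7 and 99.5 of protein-coding genes. It was the highest of the 33 genes per kb in library 2 and second to Socs3 in library 1. Its log2 ratio was -1.59 (95% interval -1.62 to -1.56). Exons of Pim1 overlap those of the antisense gene Gm26885 over 488 bp, which had 503 counts in library 2 and 630 in library 1, against 12309 and 43425 for Pim1. Pim3 was at 24.4 and 35.2 CPM per kb, and Pim2, which is best known from lymphoid cells, at 1.63 and 3.32. Pim1 exceeded Pim3 by 3.55 per kb (95% interval 3.40 to 3.70) in library 2 and by 5.24 (5.10 to 5.38) in library 1. Bcl6, a transcriptional repressor that can occupy STAT sites, was at 7.91 and 15.3 CPM per kb with a log2 ratio of -1.45. The 4 genes of this group were all at least 2-fold lower in library 2 with TMM scaling. Of the 30373 genes 12.6% were, and of protein-coding genes above background in both libraries 20.7%. Pim3 was close to the limit at -1.03. With library totals Pim3, at -0.53, and Bcl6, at -0.95, fell short of it.

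Among the tyrosine phosphatases, Ptpn6 and Ptpn11 differed in how far the replicates lay apart. Ptpn6 (ENSMUSG00000004266, GRCm38 chromosome 6, 124720707 to 124738714, minus strand) encodes SHP-1, a phosphatase best known from blood cells. It was at 19.8 CPM per kb in library 2 and 85.5 in library 1, with a log2 ratio of -2.62 (95% interval -2.68 to -2.55). Ptpn11, which encodes the widely expressed SHP-2, was at 12.6 and 12.8 CPM per kb, or 12.7 ± 0.145 (SD, n = 2), with a log2 ratio of -0.52. The Ptpn6 to Ptpn11 ratio per kb was therefore 1.57 (95% interval 1.49 to 1.65) in library 2 and 6.67 (6.49 to 6.87) in library 1. By counts, without exon length, the order of this pair reversed, with ratios of 0.586 and 2.50. Beside these values, Ptprc had 7.73 CPM per kb in library 2 and 33.3 in library 1. Ptpn1, which encodes PTP1B and acts on JAK2 and TYK2, was at 17.0 and 29.4 CPM per kb with a log2 ratio of -1.29. Ptpn2, which acts on JAK1 and JAK3, was at 13.9 and 15.5 with a ratio of -0.66. Sh2b3, an adaptor that damps JAK2 signalling in blood cells, was at 5.50 and 13.2 CPM per kb, with a log2 ratio of -1.76.

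The PIAS genes, whose products attach SUMO to transcription factors and restrain STATs in the nucleus, were expressed at modest levels, and by CPM per kb 3 of the 4 were closer between the replicates than Pias4. Pias1 was at 7.04 CPM per kb in library 2 and 7.10 in library 1, Pias2 at 4.99 and 5.17, and Pias3 at 2.18 and 2.65. Pias4 was higher in library 2, at 9.41 CPM per kb against 5.05 in library 1. With TMM scaling none of the 4 was at least 2-fold apart. Their log2 ratios were then -0.51 (Pias1), -0.55 (Pias2), -0.78 (Pias3) and 0.40 (Pias4), so with this scaling Pias4 was the closest. The endosomal adaptors Stam and Stam2, which sort ubiquitinated receptors and bind Janus kinases, were higher in library 2 by CPM. Stam was at 5.83 CPM per kb in library 2 and 2.05 in library 1, and Stam2 at 10.1 and 7.18. With TMM scaling the log2 ratio of Stam was 1.01 (95% interval 0.91 to 1.11), the one gene of the 33 past 2-fold in this direction, and that of Stam2 was -0.01. With DESeq2 size factors Stam fell short of 2-fold, at 0.91.

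Within each library, 10 pairs of related genes were compared per kb of exon, which needs no scaling between libraries. The order was kept in 9 of 10 pairs, the exception being Jak1 and Jak2. Such a count was not made for other gene pairs, and pairs far apart, such as Socs3 and Socs1, could hardly change order. In no pair did the counting intervals of the 2 libraries overlap, so each ratio differed by more than counting error. Cish exceeded Socs2 by 11.05 (95% interval 9.91 to 12.4) in library 2 and by 7.60 (7.25 to 7.96) in library 1. Ptpn1 exceeded Ptpn2 by 1.23 in library 2 and 1.89 in library 1. Stam was below Stam2, at 0.578 and 0.285 of its level.

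**Figure D3:**
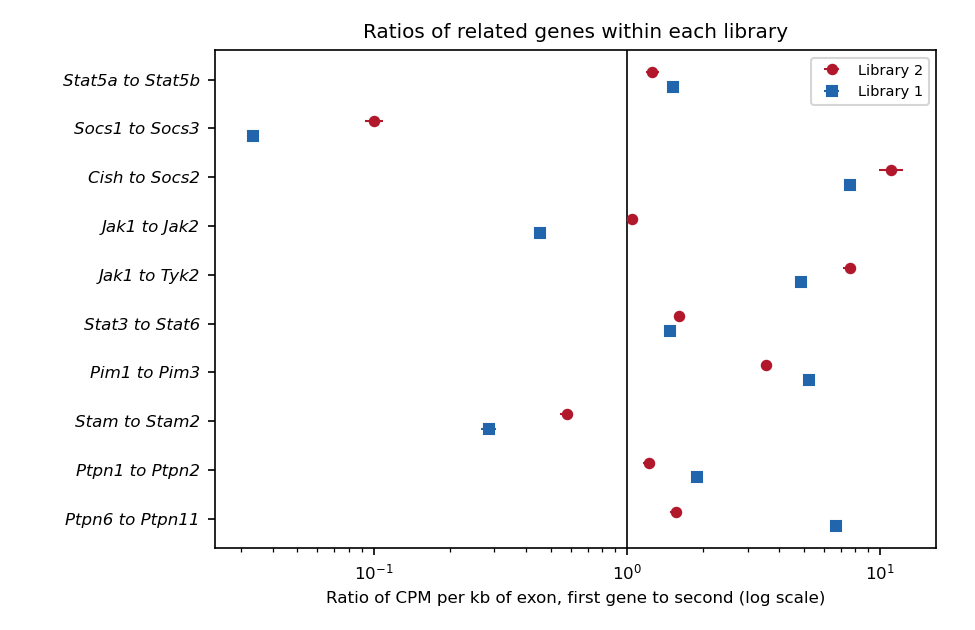
Ratio of CPM per kb of exon (log scale) of the first to the second gene of 10 pairs, with circles for library 2, squares for library 1 and bars for the exact 95% binomial interval. The Jak1 to Jak2 pair lies on opposite sides of 1 in the 2 libraries, and the Ptpn6 to Ptpn11 pair is at 1.57 in library 2 and 6.67 in library 1.

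Further genes of the pathway were taken from 3 lists. Of 32 receptor chains that signal through Janus kinases, 25 were above background in both libraries, against 47.3% of protein-coding genes. The highest per kb were Csf2rb, the signalling chain of the GM-CSF receptor, at 56.8 CPM per kb in library 2 and 160 in library 1, its near-identical neighbour Csf2rb2 at 42.7 and 112, and Il4ra at 35.7 and 63.8. Reads could have been split between Csf2rb and Csf2rb2. Il12rb1, the chain shared by the IL-12 and IL-23 receptors, was within background in both libraries, at 0.444 and 0.679 CPM per kb. Il23r, at 0.970 and 0.782, was above it in library 1 alone. Over the 31 receptor genes that reached 1 CPM the median log2 ratio was -1.11, with 17 at least 2-fold lower and 3 at least 2-fold higher in library 2. Of the 30373 genes 12.6% and 24.5% were, and of protein-coding genes above background in both libraries 20.7% and 4.95%. Of the 3 higher receptor genes, Ghr and Lepr lay within background in both libraries. The third, Osmr, the oncostatin M receptor, was at 3.61 CPM per kb in library 2 and 1.20 in library 1.

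All 16 partners and further regulators were above background in both libraries, against 47.3% of protein-coding genes. By the mean of both libraries per kb they were led by the adaptor gene Grb2, which was at 25.5 CPM per kb in library 2 and 48.3 in library 1, by Hgs, which forms a complex with STAM proteins, at 23.9 and 18.5, and by Ptprc, at 7.73 and 33.3; in library 2 alone Ptprc was below Elob, at 18.4. The median log2 ratio of the 16 was -0.95, with 7 at least 2-fold lower and none at least 2-fold higher in library 2. Of the 30373 genes, 12.6% and 24.5% were, and of protein-coding genes above background in both libraries 20.7% and 4.95%. The 4 partners of the SOCS box, Elob, Eloc, Cul5 and Rnf7, had log2 ratios of -0.66, -0.46, -0.38 and -0.28. All 12 textbook STAT targets outside the 33 genes were above background in both libraries, against the same 47.3%. They were led by Fos at 303 CPM per kb in library 2 and 607 in library 1, Junb at 198 and 362, and the survival gene Mcl1 at 172 and 345. Many signals other than STATs also induce these genes. The median log2 ratio of the 12 was -1.12, with 6 at least 2-fold lower and none at least 2-fold higher. Beside these counts stand the same shares, 12.6% and 24.5% of the 30373 genes, and 20.7% and 4.95% of those protein-coding genes. The medians of the 3 lists lay near that of the 33 genes, -1.06, and so did that of the Langerhans cell markers, -0.96. Closeness to -1.06 is therefore not particular to the pathway. Il4ra is in both the receptor and the target list.

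**Figure D4:**
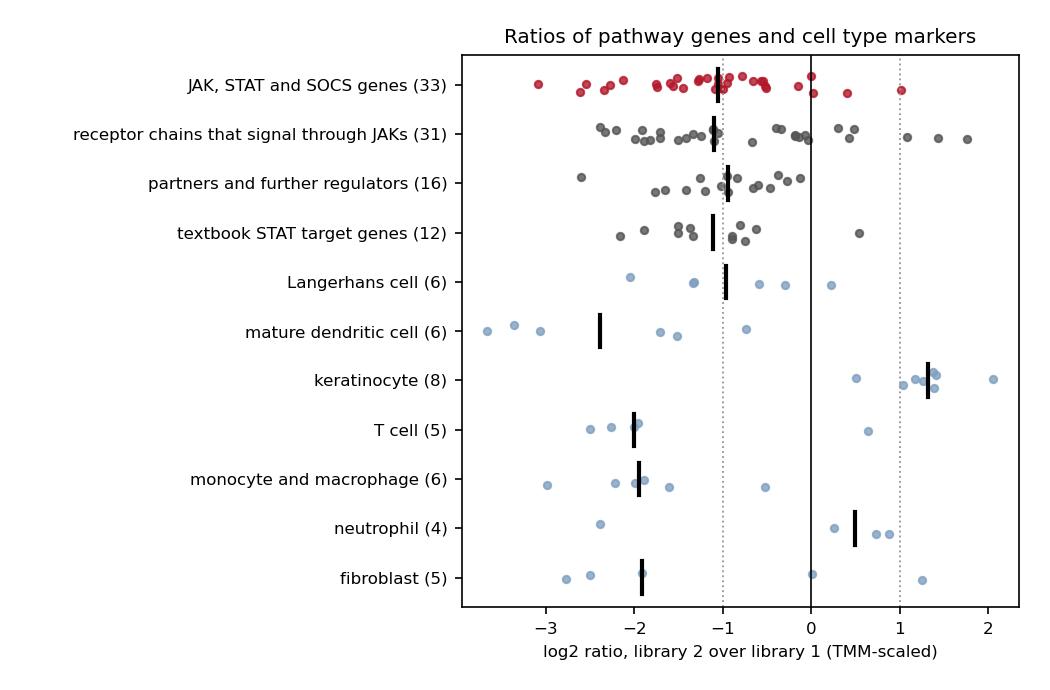
Log2 ratio of library 2 over library 1 (TMM-scaled) for the 33 genes, 3 lists of further pathway genes and 7 lists of cell type markers, 1 point per gene that reached 1 CPM in either library, black bars at the medians and dotted lines at 2-fold; point height within a row carries no value. The keratinocyte list lies to the right with a median of 1.31, and the mature dendritic cell list to the left with -2.39.

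Cell type markers differed between the libraries as well. For the Langerhans cell list the median log2 ratio was -0.96, with Cd74 at 4067 CPM in library 2 and 7188 in library 1 and Mfge8 at 2118 and 6204. In both libraries 6 of its 6 genes were above background, against 47.3% of protein-coding genes. The mature dendritic cell list had -2.39, with Cd83 at 337 and 780 CPM and Ccl22 at 92.6 and 828. The monocyte and macrophage list had -1.94, with Csf1r at 263 and 738 CPM and Itgam at 160 and 526, and it summed to 848 CPM in library 2 and 2005 in library 1. The keratinocyte list had 1.31, with 7 of 8 genes past 2-fold toward library 2, against 24.5% of the 30373 genes. Of protein-coding genes above background in both libraries 4.95% were. Krt14 was at 4806 and 1315 CPM and Dsp at 3141 and 985. The T cell list had -2.01, although Thy1 was higher in library 2, at 68.3 and 30.9 CPM, against 16.2 and 65.1 for Cd3g. Of the neutrophil list, with a median of 0.49, S100a9 was at 425 CPM in library 2 and 182 in library 1 and S100a8 at 165 and 63.6. Keratinocytes also express both. Csf3r of the same list went the other way, at 15.2 CPM in library 2 and 56.3 in library 1, a log2 ratio of -2.39. Of the fibroblast list, with -1.92, 0 of 5 genes were above background in library 2 and 3 in library 1. In both libraries 0 were, against 47.3% of protein-coding genes. In library 2, 3 of the 5 were at least 2-fold lower and 1 at least 2-fold higher. Of the 30373 genes, 12.6% and 24.5% were. Col3a1 was at 8.66 and 42.0 CPM and Col1a1 at 8.85 and 35.6. No marker was at 0 counts. Keratinocytes and T cells express Janus kinases, STATs and SOCS genes too, and the part of these cells in the levels above was not tested.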

How the data were processed

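RNA sequencing counts of 2 samples of 1 group were analysed. The deposited table holds whole-number counts per Ensembl gene, which were not normalized. The build GRCm38 and the tools Trimmomatic, HISAT2, SAMtools and StringTie appear in the submitters' processing notes, without versions. Per the labels' protocols, a stranded pico-input kit was used on 10 to 70 ng of RNA. The sources used here do not give the annotation release, how strand was treated, or whether reads or pairs were counted; if mates were counted singly, the intervals given are too narrow. Rows without an identifier (2, 1 of them with the column totals) were left out. The column that carries no number is called library 1.

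Symbols, positions and exon lengths (union of exons) came from GENCODE M21 on GRCm38 for 55227 of 55487 rows. Levels are CPM, with exact 95% Poisson intervals. Library ratios were scaled by TMM (edgeR 4.0.16, R 4.3.3) over genes that reached 1 CPM in either library, with a prior count of 1. Their intervals, and those of ratios within a library, are exact binomial. TMM scaling was tried on simulated Poisson counts around a shared profile, with as many genes raised as lowered. The reported ratios were computed by separate code. Because the simulated libraries were far more alike than these, that trial does not show that the ratios hold here. DESeq2 1.42.0 gave alternative size factors. With 1 group no test of conditions exists.

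The 33 genes, the lists, the pairs and the background genes were chosen with earlier results of these data known. All 33 genes are named, and from each further list the 3 highest per kb or, for markers, the 2 highest by CPM, both by the mean of the 2 libraries. Other genes of the lists that are named were chosen after their values were seen. Scaling to Cd207 or Ptprc and subtraction of the background median were also chosen after seeing the data.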

Additional observations from a re-analysis of the deposited data

How the results depend on the processing

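The number of the 33 genes above background in both libraries was 31, and it ranged from 28 to 32 with the 90th or 99th percentile, vomeronasal receptor genes as background, or CPM without length. Leaving out each replicate in turn gave 31 to 33. The number at least 2-fold lower in library 2 was 20 with TMM, 11 with total counts, 8 relative to Cd207 and 0 relative to Ptprc, and 20 to 24 with DESeq2 size factors, no count filter, a fold limit of 1.5 or the background median subtracted. The number at least 2-fold higher was 1 with TMM, 0 with DESeq2 size factors, 0 without a count filter, where Stam lay just under the limit, and 25 relative to Ptprc. The median log2 ratio was -1.06 with TMM, -0.56 with total counts, -1.16 with DESeq2 size factors, -1.16 after subtraction of the background median, -0.46 relative to Cd207 and 1.55, the opposite sign, relative to Ptprc. Setting the libraries to equal Ptprc is a constant shift that moves all genes alike, and the other settings left the median negative. The cause of the differences was not tested. Total counts changed the sign of 2 single ratios, Socs4 and Stam2. The order within pairs was kept in 9 of 10 pairs per kb and in 8 by counts. Counting error was small for the 33 genes at this depth, and the limit is the 2 libraries. No paired analysis was possible because the samples analysed here form a single group.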
